A study of Mus musculus with 8 samples.

Results

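Paneth cells (PCs), the antimicrobial secretory cells at the bottom of the crypts of the small intestine, also feed the stem cells they sit between. A set of 10 genes was examined in sorted mouse PCs for this side of the cell. The set was a list of names with no threshold on measured values, although it was drawn up with earlier results of these data known. It was taken from the Wnt, EGF family and Notch ligands ascribed to PCs as a stem cell niche (Wnt3, Wnt11, Egf, Tgfa, Dll1, Dll4 and Jag1) and from surface proteins used to sort or describe PCs (Cd24a, Kit and Bst1). These were 10 of the 55414 genes in the count table. Of the 10 genes, 9 had at least 1 count and 8 passed the filter on low counts, Wnt11 and Bst1 being the genes that did not.

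The samples were 8 libraries of bulk RNA from FACS-sorted PCs of C57BL/6J mice, 1 mouse per library. The 4 mice of the Milli-Q water group drank purified water for 7 days, and the 4 mice of the zinc group drank water with 25 mM ZnSO4 for as long. Per the labels every mouse was then injected with TNF, an inflammatory cytokine, and PCs were taken 3 h later, so no library is labelled as free of TNF. Zinc replicate 3 went against that label in its TNF response genes, as its values beside the library totals show, and whether its mouse received TNF cannot be settled from the labels. The age of the mice and the TNF dose are not stated in the labels or methods. The sort took cells high in CD24 and c-Kit with medium to high side scatter, and removed cells with CD31, CD45 or TER119. Cd24a and Kit encode the gated proteins, so their presence follows from the gate. Only their level can be compared, and as the gate took cells high in these proteins, it may bear on that level too.

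In the crypt, Wnt ligands bind Frizzled and LRP receptors on the neighboring stem cell and keep it dividing. EGF family ligands act through ErbB receptors and drive proliferation, and Notch ligands on the PC surface activate Notch receptors on the touching cell, which holds that cell out of the secretory lineage. Wnt3 is the Wnt ligand that mouse PCs are known to make, Wnt11 is mostly known as a ligand of Wnt signaling that does not go through beta-catenin, and Dll1 and Dll4 are the Notch ligands known from intestinal secretory cells. CD24 and the stem cell factor receptor c-Kit are used to sort PCs, and Bst1 encodes an ectoenzyme that makes the messenger cyclic ADP-ribose.

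Library totals ran from 10623658 to 15101627 counts, and a gene without a count may still lie anywhere up to 3 counts, which is 0.179 to 0.369 CPM depending on the library (CPM being counts on a common, TMM-scaled library size). Such limits and the Wilson intervals used for shares cover counting error only, as the reads carried no molecular identifiers. The PC marker list (Lyz1, Mmp7, Itln1, Ang4, Mptx2, Pnliprp2, Defa24 and Defa30) summed to between 392231 and 734910 CPM, and all 8 of its genes had counts. For the gated-out antigens, Pecam1 had 10 counts and Ptprc 2 counts over all libraries, and the leukocyte and mast cell list, the endothelial list and the stromal list reached at most 0.430, 0.484 and 0.123 CPM. Zinc replicate 3 stood apart, with correlations of log2 CPM of 0.838 to 0.896 with the other libraries, against 0.950 or more among those 7. In that library the 16 genes of a TNF and NF-kB response list summed to 134 CPM, against 1822 to 2208 CPM in the other 7, and 14 of the 16 were at their lowest there. Icam1, Cxcl1, Cxcl2 and Cxcl10, known targets of TNF signaling, had 0 counts in it and counts in each of the other 7. The enterocyte list summed to 104 CPM there against 2.18 to 24.6 CPM, with 8 of 8 genes at their highest, and the tuft cell list to 16.5 CPM against 2.02 to 7.20 CPM, with 6 of 6 at their highest. Values are therefore given with and without zinc replicate 3 where it decided a sign or most of a difference.

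**Figure D1:**
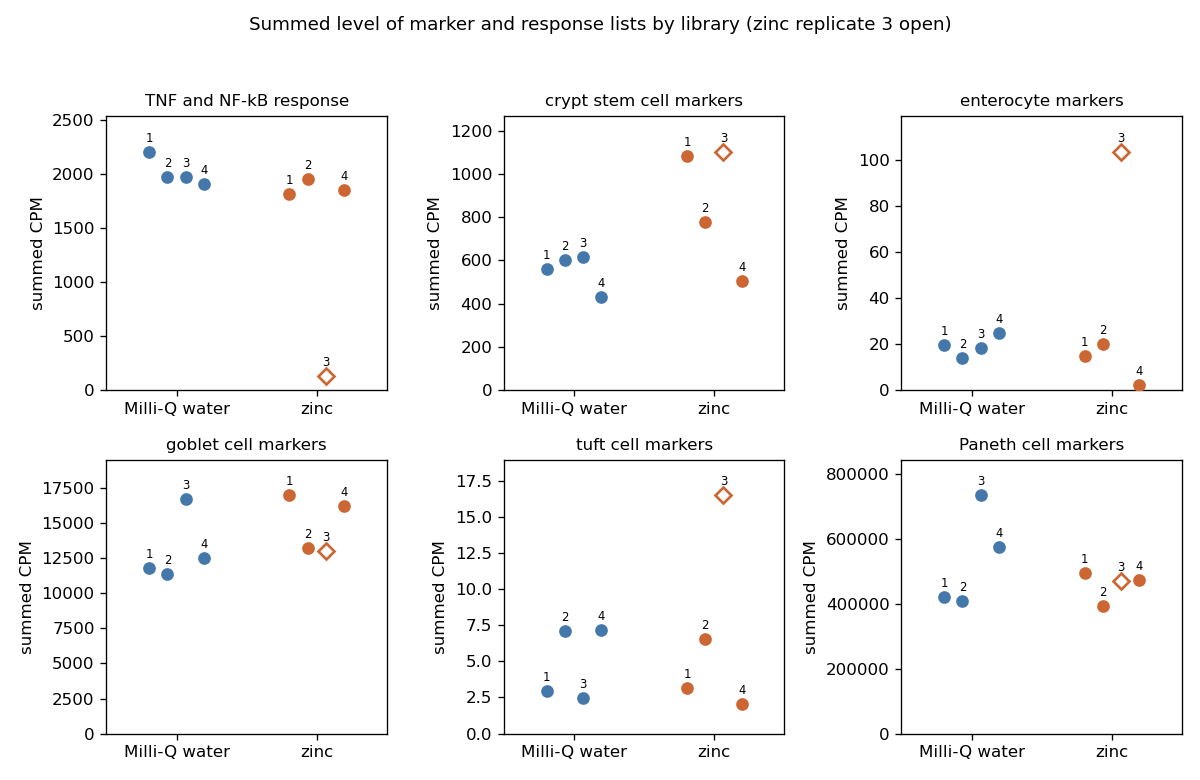
Summed CPM (y axis, from 0) of 6 gene lists in each library of the Milli-Q water group (blue) and the zinc group (orange), with replicate numbers above the points and zinc replicate 3 as an open diamond. Zinc replicate 3 lies at 134 CPM for the TNF and NF-kB list and at 104 CPM for the enterocyte list, away from the other 7 libraries, while its PC marker sum of 470338 CPM lies within their range.

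Among the niche ligands, Wnt3 was the most abundant and Wnt11 was not detected. Wnt3 (ENSMUSG00000000125, GRCm39 chromosome 11, 103664976 to 103708853, plus strand) had 86.2, 76.0, 86.3 and 79.9 CPM in water replicates 1 to 4 and 86.4, 82.3, 142 and 90.6 CPM in zinc replicates 1 to 4. The groups overlapped, and 7 of the 8 libraries lay between 76.0 and 90.6 CPM with zinc replicate 3 above them. The log2 fold change, zinc over water, was 0.29 (SE 0.187, 95% interval -0.12 to 0.70, edgeR adjusted p = 0.544), and without zinc replicate 3 it was 0.08. Wnt11 (ENSMUSG00000015957, chromosome 7, 98484319 to 98504402, plus strand) had 0 counts in every library, which allows at most 0.179 to 0.369 CPM depending on the library.

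Wnt3 supplied nearly all Wnt ligand transcripts of the sorted cells. Of the 19 Wnt genes, 8 had a count and 11 had none, and Wnt3 held 95.6% of the 9882 Wnt counts. Per kilobase of transcript, Wnt3 had 29.0 CPM per kb, and the next Wnt ligand, Wnt10a, had 0.727 CPM per kb. Wnt9a followed with 0.146 and Wnt5a with 0.144 CPM per kb. Per library, the share of Wnt3 among Wnt counts ran from 94.3% (95% Wilson interval 92.8% to 95.6%) in water replicate 4 to 96.9% (95.8% to 97.7%) in water replicate 1, and the zinc libraries lay within that span. The mean was 95.7% ± 1.16 in water and 95.4% ± 0.563 with zinc (n = 4 each, SD), so that zinc minus water came to -0.359 percentage points (two-sided exact permutation test, p = 0.571, adjusted over 3 shares 0.571). In zinc replicate 3, the library with the most Wnt counts, the share was 96.0%.

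Genes for Wnt secretion and reception were also detected in the sorted populations. Of 23 genes for Wnt secretion and receptors, 18 had counts and 16 were tested, 14 with a higher and 2 with a lower mean with zinc, and none was called. The median log2 fold change of the tested genes was 0.54, beside 0.01 for all 10707 tested genes, and 0.33 without zinc replicate 3. Lgr4, a receptor for R-spondins, had 68.5 ± 8.59 CPM in water and 126 ± 82.7 CPM with zinc, of which zinc replicate 3 had 249 CPM. Lrp5, a Wnt co-receptor, had 92.7 ± 18.4 and 97.7 ± 20.2 CPM, and Fzd9, a Wnt receptor, had 22.0 ± 2.08 and 35.0 ± 25.3 CPM (adjusted p of 0.485, 0.886 and 0.516 in the edgeR test). Without zinc replicate 3 the zinc mean was 84.4 ± 9.18 CPM for Lgr4 and 22.5 ± 3.57 CPM for Fzd9, the latter close to the water mean. Rspo1 to Rspo4, the R-spondin genes, had no count. Of 12 Wnt target genes 9 were tested, with 6 higher, 3 lower and none called (8 higher and 1 lower without zinc replicate 3). Among them Sox9, a transcription factor of the crypt base that PCs need, had 212 ± 26.5 CPM in water and 183 ± 62.0 CPM with zinc, Ephb3, a receptor that positions PCs, had 157 ± 16.5 and 192 ± 42.1 CPM, and Myc had 31.0 ± 6.30 and 30.0 ± 9.67 CPM. The sign of Sox9 and Myc turned without zinc replicate 3, with log2 fold changes of 0.01 and 0.06 in place of -0.21 and -0.04.

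**Figure D2:**
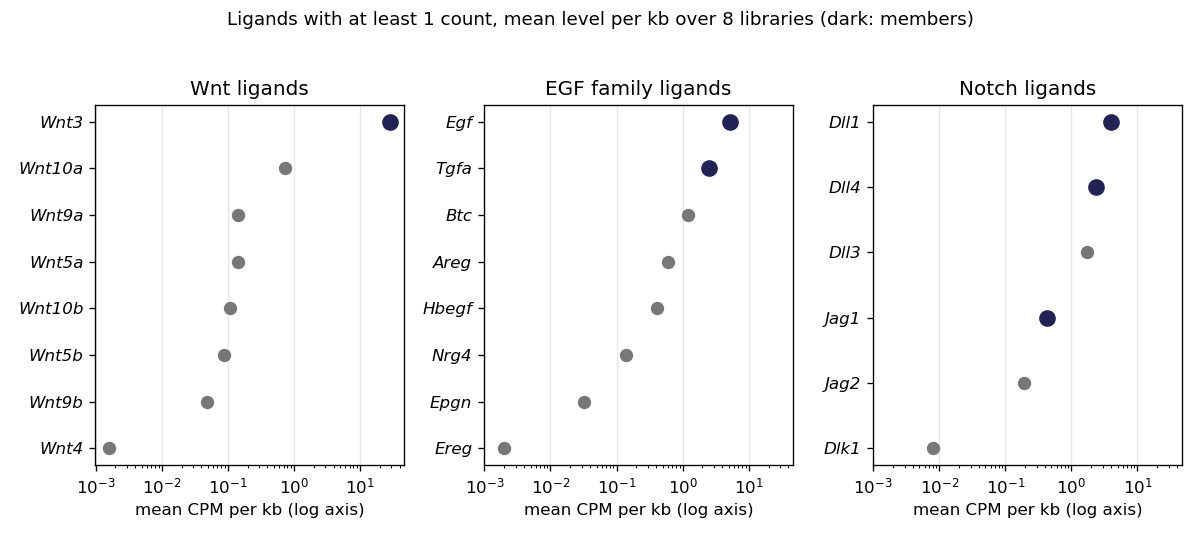
Mean level over the 8 libraries in CPM per kb of transcript (x axis, logarithmic) of each Wnt, EGF family and Notch ligand with at least 1 count, with the genes of the set as dark points. Wnt3 lies at 29.0 CPM per kb, apart from Wnt10a at 0.727, while Egf (5.27) and Tgfa (2.52), and Dll1 (4.01) and Dll4 (2.32), head their families with smaller steps.

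Of the EGF family ligands, Egf and Tgfa were both present in every library, and Egf was higher in 3 of the 4 zinc libraries than in any water library, a difference that did not pass the test over all genes. Egf (ENSMUSG00000028017, chromosome 3, 129470410 to 129549093, minus strand) had 24.5, 25.1, 25.7 and 25.0 CPM in water replicates 1 to 4, a tight group. With zinc it had 35.4, 28.5, 50.8 and 24.9 CPM, so that 3 zinc libraries lay above every water library and zinc replicate 4 among them. Zinc over water gave a log2 fold change of 0.48 (SE 0.205, 95% interval 0.02 to 0.93). Its unadjusted p was 0.0414 and its adjusted p 0.485 in the edgeR test, and without zinc replicate 3 the log2 fold change was 0.24 (adjusted p = 0.688).

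Tgfa, an EGF receptor ligand shed from a membrane precursor, differed little between the groups. Tgfa (ENSMUSG00000029999, chromosome 6, 86172041 to 86252728, plus strand) had 13.7, 12.6, 11.2 and 9.75 CPM in water and 12.1, 12.9, 10.9 and 11.9 CPM with zinc, replicates 1 to 4. The groups overlapped throughout and zinc replicate 3 was within the range of the others. The log2 fold change was 0.02 (SE 0.151, 95% interval -0.32 to 0.35, edgeR adjusted p = 0.973), and its sign turned under several settings.

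Egf also made up the largest share of the EGF family, and that share was highest in zinc replicate 3. Of 11 family genes 8 had counts, and over all libraries Egf held 63.3% and Tgfa 25.2% of 4910 counts. Betacellulin (Btc), an ErbB ligand, had 1.20 CPM per kb, amphiregulin (Areg) 0.611 and Hbegf 0.410, below Egf at 5.27 and Tgfa at 2.52 CPM per kb. The share of Egf was 57.2%, 55.8%, 57.1% and 63.5% in water replicates 1 to 4 and 65.6%, 57.2%, 79.6% and 63.2% with zinc. The highest, in zinc replicate 3, had a 95% Wilson interval of 76.9% to 82.1%, above the upper bound of every other library. The means were 58.4% ± 3.47 and 66.4% ± 9.50 (SD, n = 4), 8.04 percentage points apart (two-sided exact permutation test, p = 0.143, adjusted 0.429). Without zinc replicate 3 the difference was 3.63 points (exact permutation test, p = 0.286), where 3 libraries against 4 cannot give a p below 0.0571.

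Of 14 genes for ErbB receptors, sheddases and feedback inhibitors 13 had counts and were tested, 5 higher and 8 lower with zinc, and none was called. Lrig1, a brake on ErbB receptors, had 53.9 ± 3.93 CPM in water and 69.5 ± 22.1 CPM with zinc. Adam10, a protease that cleaves EGF and Notch family proteins, had 57.3 ± 5.63 and 53.8 ± 13.2 CPM, and Erbb3, an ErbB receptor, had 62.5 ± 13.7 and 72.1 ± 13.5 CPM. The zinc mean of Adam10 without zinc replicate 3 was 59.5 ± 8.29 CPM, above the water mean, and that of Lrig1 59.4 ± 11.1 CPM. The median log2 fold change of the list was -0.09, and 0.12 without zinc replicate 3, so its sign rested on that library.

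**Figure D3:**
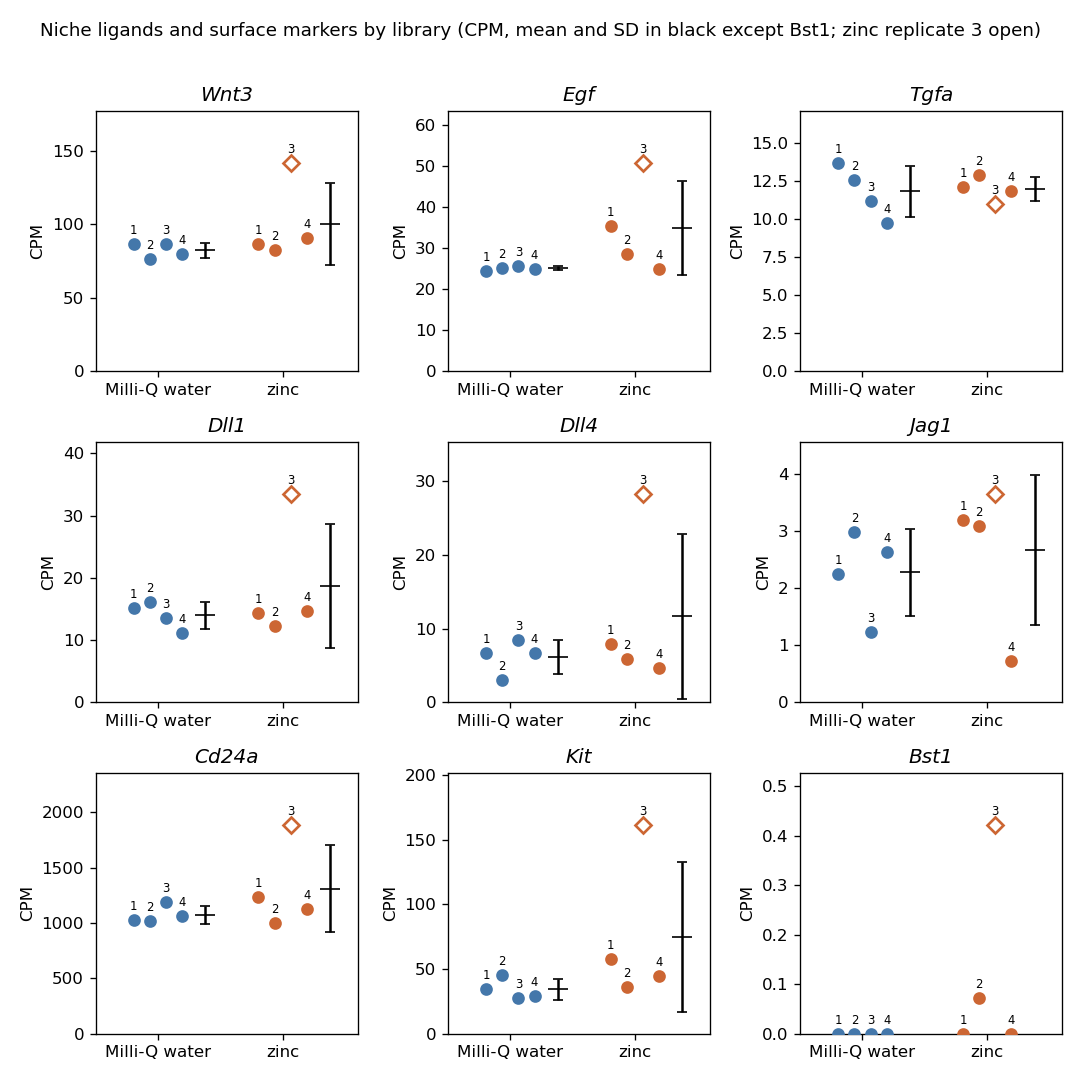
CPM (y axes, each from 0) of the 9 genes of the set that had counts, in each library of the Milli-Q water group (blue) and the zinc group (orange), with replicate numbers above the points, zinc replicate 3 as an open diamond, and the mean with SD (n = 4) in black, except for Bst1. Zinc replicate 3 is the highest point in every panel except Tgfa, and the other 7 libraries overlap between the groups.

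The Notch ligands Dll1 and Dll4 were 2.41-fold and 4.58-fold higher in zinc replicate 3 than in the mean of the other 7 libraries, among which the groups overlapped. Dll1 (ENSMUSG00000014773, chromosome 17, 15587276 to 15597134, minus strand) had 15.1, 16.1, 13.5 and 11.2 CPM in water replicates 1 to 4 and 14.3, 12.2, 33.5 and 14.7 CPM with zinc. Dll4 (ENSMUSG00000027314, chromosome 2, 119156170 to 119166443, plus strand) had 6.63, 2.98, 8.49 and 6.64 CPM in water and 7.96, 5.81, 28.2 and 4.60 CPM with zinc. In both genes the 3 other zinc libraries lay within the range of the water libraries. For Dll1 the log2 fold change was 0.42 (SE 0.301, 95% interval -0.25 to 1.08, edgeR adjusted p = 0.586), and it was -0.03 without zinc replicate 3. For Dll4 it was 0.94 (SE 0.554, 95% interval -0.29 to 2.16, edgeR adjusted p = 0.522), and 0.01 without that library.

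The letters at the starts of these genes are shown to give the sequence beside the values. Promoters of 300 bases (250 before and 50 after the start) were available from RefSeq, build GRCm38.p6, for 8 of the 10 genes in 12 promoters, which is a different build from the GRCm39 coordinates given for the genes. They were searched on both strands for the kappaB motif bound by NF-kB and for CAGCTG, a form of the E-box that reads the same on both strands. The kappaB motif was in 3 of the 12 promoters, those of Dll4, Dll1 and Tgfa, and in 8.46% of all 32851 promoters in the RefSeq table. All 3 matches are shown in windows of 30 bases, with the match in capitals.
Dll4, kappaB, chr2:119325665-119325694, plus strand: cggcgggggcGGAGGCCCCCtccggtgggt
Dll1, kappaB, chr17:15375885-15375914, minus strand: ggtgcggcacGGAGCCTCCCacgcttcggc
Tgfa, kappaB, chr6:86195234-86195263, plus strand: tgcgccttcgGGGGCGCCCCatcgcgggag

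The Dll4 match began 109 bases and the Dll1 match 81 bases before the start, and these read as the motif on the opposite strand only. The Tgfa match lay after the start and reads the same on both strands. Of these genes Dll4 and Dll1 were highest in zinc replicate 3 and Tgfa was not. Kit, Egf, Wnt3 and Jag1, which had no kappaB match, were highest in that library too, and a link between motif and level was not tested. CAGCTG, held by 16.3% of all promoters, was found in a second Dll1 promoter and in Jag1, and not in the windows of the other genes searched.
Dll1, CAGCTG, chr17:15377047-15377076, minus strand: tgcattaccataCAGCTGagcgcacaaaga
Jag1, CAGCTG, chr2:137116585-137116614, minus strand: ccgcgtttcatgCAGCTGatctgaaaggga

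These matches describe letters in a window and are not measured sites. The 2 motifs did not overlap in any promoter shown.

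Jag1 (ENSMUSG00000027276, chromosome 2, 136923373 to 136958693, minus strand), a Notch ligand of the Jagged type, was low, with 2.26, 2.98, 1.23 and 2.64 CPM in water and 3.19, 3.08, 3.65 and 0.726 CPM with zinc. The highest and the lowest library were both in the zinc group. For Jag1 the log2 fold change was 0.20 (SE 0.456, 95% interval -0.81 to 1.22, edgeR adjusted p = 0.863). Single libraries decided it, since it was 0.01 without zinc replicate 3, 0.02 without water replicate 3 and 0.51 without zinc replicate 4.

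Between the Delta-like ligands, Dll1 was the larger in every library. The share of Dll4 in the sum of Dll1 and Dll4 counts was 30.5%, 15.6%, 38.5% and 37.2% in water replicates 1 to 4 and 35.7%, 32.3%, 45.7% and 23.8% with zinc. The means were 30.5% ± 10.5 and 34.4% ± 9.06 (SD, n = 4), a difference of 3.93 percentage points (two-sided exact permutation test, p = 0.571, adjusted 0.571). Without zinc replicate 3 the difference was 0.150 points. Of the 7 Notch ligand genes 6 had counts, and the ligands outside the set were Dll3 with 1.70, Jag2 with 0.194 and Dlk1 with 0.00800 CPM per kb.

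Of 14 genes for Notch receptors and ligand processing 11 were tested, 9 higher and 2 lower with zinc (median log2 fold change 0.28, and 0.17 without zinc replicate 3). None was called. Mib1, the ubiquitin ligase that activates Notch ligands in the signal-sending cell, had 50.2 ± 6.55 CPM in water and 59.1 ± 5.52 CPM with zinc. Rfng, a Fringe glycosyltransferase, had 6.22 ± 1.31 and 7.59 ± 2.39 CPM, and Poglut1, which adds glucose to Notch receptors, had 7.11 ± 0.495 and 6.64 ± 2.04 CPM. Zinc replicate 3 was highest in each of the 3, and without it the zinc means were 56.5, 6.57 and 5.77 CPM.

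Of 10 Notch targets and lineage factors 7 were tested, 6 higher and 1 lower with zinc, with a median log2 fold change of 1.19, and 0.60 without zinc replicate 3. The list pools targets of Notch signaling with factors of the secretory lineage, out of which Notch holds cells. Its counts and median are therefore no measure of Notch output. None was called, and 5 of the 7 had an unadjusted p under 0.05 in the edgeR test, where 10.2% of all tested genes did. Without zinc replicate 3 it was 4 of 7, where 8.06% of all tested genes did. Atoh1, the master factor of the secretory lineage, had 35.7 ± 10.3 CPM in water and 133, 32.5, 98.0 and 73.4 CPM in zinc replicates 1 to 4 (log2 fold change 1.23, SE 0.371, edgeR adjusted p = 0.485). Spdef, which acts in PC and goblet cell maturation, had 185 ± 37.2 and 135 ± 22.2 CPM, and Hes6 had 3.17 ± 0.807 and 9.95 ± 9.45 CPM, or 5.31 ± 2.22 CPM with zinc without replicate 3. Over the 9 lists of ligands, receptors, targets and partners that surround the set, 65 genes were tested. None was called, and 16 had an unadjusted p under 0.05, beside 10.2% of all tested genes. Without zinc replicate 3 it was 12 of 65, beside 8.06% of all tested genes. In 3 of them the groups did not overlap, all higher with zinc, where 2.76% of all tested genes did so. The 3 genes were Fzd3, Notch2 and Hes1, named after their values were seen. The crypt stem cell marker list shares Lgr5 and Ascl2 with the surrounding lists. It summed to between 429 and 616 CPM in water and between 503 and 1102 CPM with zinc. Its lowest zinc value, in replicate 4, lay within the water range. The part of this list in the values above was not tested.

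Of the surface markers, Cd24a was by far the most abundant gene of the set, Kit had the largest fold change and Bst1 was near absent. Cd24a (ENSMUSG00000047139, chromosome 10, 43454280 to 43460264, plus strand), which encodes the CD24 glycoprotein, had 1026, 1015, 1191 and 1059 CPM in water replicates 1 to 4 and 1233, 998, 1882 and 1121 CPM with zinc. Only zinc replicate 3 stood clear of the rest. Its log2 fold change was 0.29 (SE 0.211, 95% interval -0.18 to 0.75, edgeR adjusted p = 0.590), and 0.06 without that library. A share of 1.55% of the 75-base words of the Cd24a transcript also occurs in Gm6212, so few of its reads could be divided with that copy.

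Kit (ENSMUSG00000005672, chromosome 5, 75735576 to 75817404, plus strand) had 34.4, 45.7, 27.7 and 29.0 CPM in water replicates 1 to 4. With zinc it had 57.8, 35.8, 161 and 44.9 CPM, and 2 zinc libraries lay above all water libraries. The log2 fold change was 1.13 (SE 0.427, 95% interval 0.18 to 2.07), with an unadjusted p of 0.0236 and an adjusted p of 0.485 in the edgeR test. Without zinc replicate 3 it was 0.43 (95% interval 0.01 to 0.84, edgeR adjusted p = 0.609). The mast cell markers Cpa3, Mcpt2 and Fcer1a, which would mark another Kit-positive cell, had 0 counts in every library. In bulk RNA a change in the share of cells with a transcript and a change in the RNA per cell cannot be told apart.

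Bst1 (ENSMUSG00000029082, chromosome 5, 43976227 to 44001328, plus strand) had 7 counts in all, 1 in zinc replicate 2 and 6 in zinc replicate 3, and none in the other 6 libraries. It was below the filter, and with so few counts no fold change is given. Its relative Cd38, an ectoenzyme of the same family, had 30.5 ± 2.76 CPM in water and 18.7, 27.8, 10.1 and 23.5 CPM with zinc (log2 fold change -0.61, SE 0.257, edgeR adjusted p = 0.485). Its log2 fold change was -0.38 without zinc replicate 3. Kitl, the ligand of c-Kit, had 1.46 ± 0.430 CPM in water and 2.55 ± 1.38 CPM with zinc, or 1.98 ± 0.934 CPM with zinc without replicate 3. Siglecg and Selp, whose products bind CD24, had no count.

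**Figure D4:**
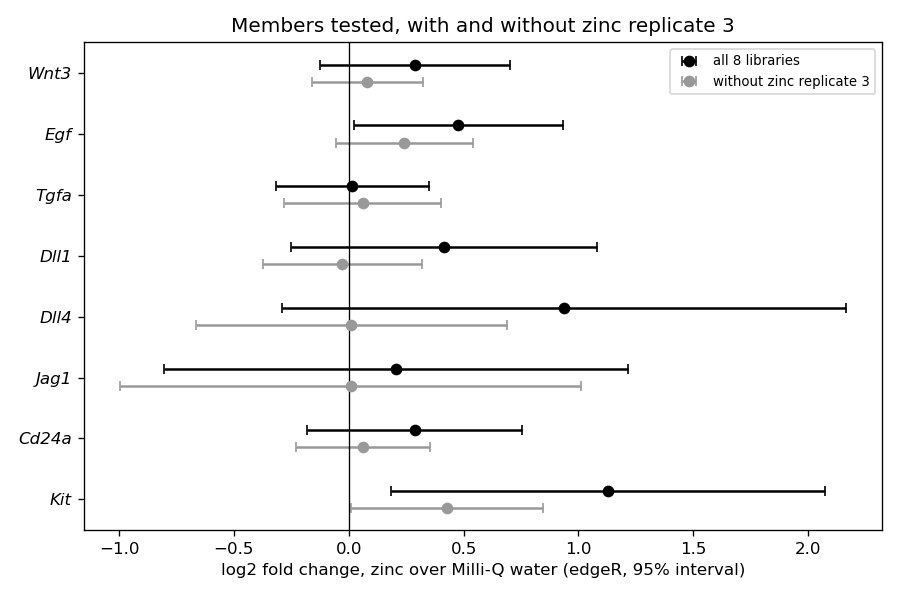
Log2 fold change, zinc over Milli-Q water, of the 8 tested genes of the set (x axis) with 95% intervals from edgeR, with all 8 libraries (black) and without zinc replicate 3 (gray). Without that library Dll4 moved from 0.94 to 0.01, Dll1 from 0.42 to -0.03 and Kit from 1.13 to 0.43.

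Across the set, none of the 8 tested genes was called at an adjusted p of 0.05, where 0% of all 10707 tested genes was called by the same edgeR fit. Unadjusted, 2 of the 8 (Egf and Kit) had p under 0.05, against 10.2% of all tested genes. In none of the 8 did the water and zinc libraries separate, beside 2.76% of tested genes that lay higher and 3.12% that lay lower with zinc without overlap. The 8 fold changes were all above 0 with a median of 0.35 on the log2 scale, where 50.8% of all tested genes were above 0 and their median was 0.01. Without zinc replicate 3, 7 of 8 were above 0 and the median was 0.06.

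The size of these values lay largely with zinc replicate 3, which was the highest of the 8 libraries for 7 of the 8 tested genes, all but Tgfa. Of all 10707 tested genes, 29.8% were highest and 30.0% lowest in it. Against the mean of the other 7 libraries it was 4.58-fold higher in Dll4, 4.10-fold in Kit and 2.41-fold in Dll1, and 0.785%, 1.04% and 4.81% of tested genes were at least as high in it. The ratio was 1.88 for Egf, 1.72 for Cd24a, 1.69 for Wnt3 and 1.59 for Jag1, and Tgfa stood at 0.912. In the same library the crypt stem cell list summed to 1102 CPM against 429 to 1082 CPM in the other 7, with 6 of 7 genes at their highest, and the goblet cell list to 13014 CPM, within the others' 11351 to 16993 CPM. The mean log2 CPM of the goblet genes was nevertheless highest there, at 9.71 against 8.24 to 8.998, with 4 of 8 genes at their highest, since Muc2 and Spink4 make up most of the sum. Fcgbp, for instance, had 1270 CPM in zinc replicate 3 and at most 318 CPM in the others. Of the stem cell list, Lgr5 and Ascl2 had 52.3 and 4.21 CPM in zinc replicate 3, their highest, while Olfm4 had 482 CPM there and 639 CPM in zinc replicate 1. The part of these cell types, and of the low TNF response, in the levels of the ligands was not tested.

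By level per kilobase, the set spanned from Cd24a to Wnt11 with wide gaps at the top and bottom. Cd24a had 655 ± 161 CPM per kb (SD, n = 8), rank 39 among 14018 coding genes with counts, and its lowest library lay above the highest of Wnt3. Wnt3 followed with 29.0 ± 6.64, Kit with 10.4 ± 8.41, Egf with 5.27 ± 1.61 and Dll1 with 4.01 ± 1.75 CPM per kb. Tgfa had 2.52 ± 0.262, Dll4 2.32 ± 2.08 and Jag1 0.430 ± 0.176 CPM per kb, and Bst1 had 0.0216. The ranges over libraries overlapped for every neighboring pair with counts except Cd24a with Wnt3 and Dll4 with Jag1. Within single libraries the order was firmer, since each gene from Cd24a to Jag1 exceeded the next in 8 of 8 libraries, except Tgfa, which exceeded Dll4 in 7. With the length of all exons in place of the main transcript, Egf and Dll1 exchanged places, as did Tgfa and Dll4.

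**Figure D5:**
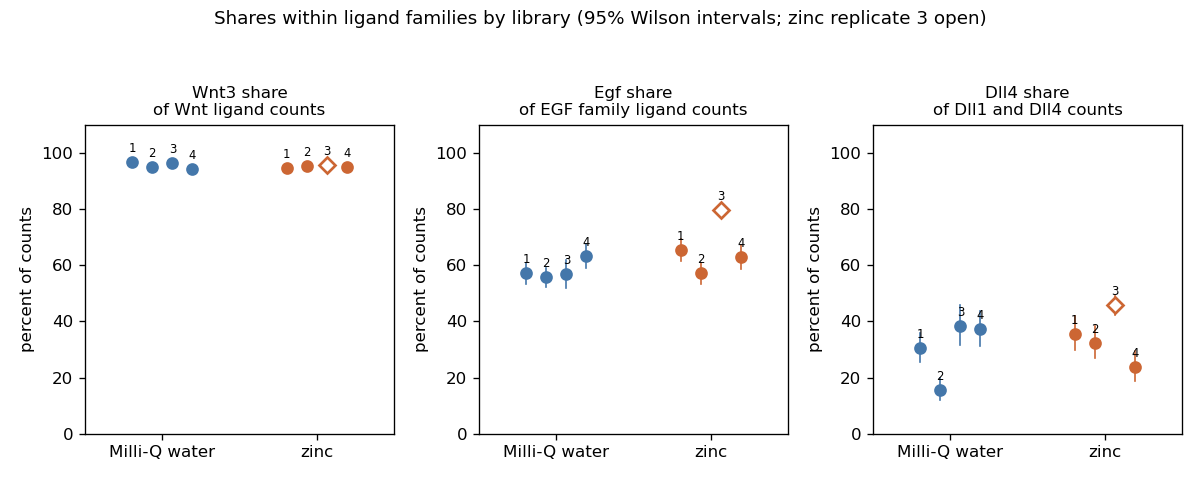
Share in percent (y axis, from 0) of Wnt3 in Wnt ligand counts, Egf in EGF family ligand counts and Dll4 in Dll1 plus Dll4 counts, per library of the Milli-Q water group (blue) and the zinc group (orange), with 95% Wilson intervals as vertical lines and zinc replicate 3 open. The Wnt3 share stays between 94.3% and 96.9%, while the Egf share of zinc replicate 3, 79.6%, lies above the other 7 libraries.

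The genes whose log2 CPM followed the leading gene of each class most closely over the 8 libraries were listed as a description, all points sharing their libraries and zinc replicate 3 weighing on each. For Wnt3 these were Dhrs7 (Pearson 0.988, Spearman 0.881) and Glt1d1 (0.985, 0.881), which fell to Pearson values of 0.867 and 0.801 without zinc replicate 3. For Egf they were Chdh, a choline dehydrogenase (Pearson 0.994, Spearman 0.905), and Rgmb, a BMP co-receptor that is also in the crypt stem cell list (0.992, 0.571), at Pearson values of 0.974 and 0.970 over the other 7 libraries. For Dll1 they were Nadk2, a mitochondrial NAD kinase (Pearson 0.978, Spearman 0.833), and Sorbs2 (0.977, 0.810), with 0.801 and 0.790 over 7 libraries. For Cd24a they were Grhpr, a glyoxylate reductase (Pearson 0.979, Spearman 0.929), and Acsl1, an acyl-CoA synthetase (0.979, 0.905), with 0.868 and 0.843 over 7.

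Exons of another gene overlap some of these genes on the opposite strand. The overlapping genes with counts were Fam120b at Dll1, with 2485 counts, Gm14207 at Dll4, with 236, Mtres1 at Cd24a, with 323, and Fbxl5 at Bst1, with 3002. The kit marked strand, but the sources used here do not say whether the counting used it, so reads of these pairs may not have been told apart. Such neighbors of Egf and Tgfa had no counts. Those of Jag1 (Gm74836) and Kit (Gm72966), and another at Dll1 (Gm64896), were not among the genes of the count table, so their reads are not known.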

How the data were processed

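PCs of 8 mice were sorted and sequenced from a strand-specific polyadenylated RNA kit. The authors deposited raw read counts per Ensembl gene in whole numbers. Their processing notes name FastQC 0.12.0, STAR 2.7.10a, DESeq2 and build mm39, while the counter, annotation release, strand setting and rule for reads with several matches are not given in the sources used here. Identifiers were matched to GENCODE M39 (GRCm39), where 54749 of 55414 matched and the other 665 held 0.00443% of counts.

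Groups came from the labels. Zinc was tested against water on all 8 libraries with edgeR 4.0.16 (R 4.3.3, quasi-likelihood F-test), with TMM factors, the default expression filter (10707 genes kept), Benjamini-Hochberg adjustment and a threshold of 0.05. CPM used TMM-scaled library sizes, and levels per kb the canonical transcript length. Shares were compared by exact permutation over 70 assignments, with a smallest p of 0.0286. DESeq2 1.42.0, limma-voom (limma 3.58.1), other scaling, no filter, a replicate block, a length correction and left-out libraries were alternatives.

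Named genes were the set, the 3 genes of highest CPM per kb in each surrounding list, any gene called, the 2 closest genes per class, Pecam1 and Ptprc. Members and lists were chosen with earlier results of these data known.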

Additional observations from a re-analysis of the deposited data

Results flagged for a closer look

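A single library far from the other 3 of its group was found in 5 of 35 combinations of gene or list and group, where chance gives about 1.75, and it was zinc replicate 3 each time. Wnt3 stood at 142 CPM there, against 82.3 to 90.6 CPM in the other zinc libraries. Dll1 stood at 33.5 CPM against 12.2 to 14.7 CPM, and Dll4 at 28.2 CPM against 4.60 to 7.96 CPM. Bst1 had 0.421 CPM, which is 6 counts, against at most 1 count. The TNF and NF-kB response list summed to 134 CPM in the same library against 1822 to 1958 CPM in the other 3. These 5 values come from 1 mouse and are not independent of each other, and what set this library apart was not tested.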

How the results depend on the processing

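No gene of the set was called under any of the 16 alternatives run, and Wnt3, Egf, Dll4, Jag1, Cd24a and Kit kept a positive log2 fold change in all of them, from 0.36 to 1.35 for Kit from 0.24 to 0.60 for Egf, from 0.01 to 1.26 for Dll4 and from 0.01 to 0.51 for Jag1. Over all genes 0 were called with edgeR (1092 at an unadjusted p under 0.05), 0 with limma-voom and 4 with DESeq2 (Lrp1, Cd74, Slc14a1 and Ms4a12, named after their values were seen), none of them in the set. The log2 fold change of Tgfa, 0.02, turned to -0.0012 with DESeq2, -0.0109 with the transcript length correction and -0.143 without water replicates 3 and 4, and ran from -0.0644 to 0.0912 with single libraries left out. That of Dll1 turned to -0.0804 with limma-voom sample weights, and ran from -0.0283, without zinc replicate 3, to 0.569. With single libraries left out the Wnt3 share difference ran from -0.829 to 0.0336 points, turning without water replicate 1, the Dll4 share difference from -1.03, without water replicate 2, to 7.44 points, and the Egf share difference from 3.63 to 11.1 points. Leaving out zinc replicate 3 moved Kit from 1.13 to 0.43 and Dll4 from 0.94 to 0.01. Water replicates 3 and 4 had a trend of deviation with transcript length (Spearman -0.333 and -0.340), against 0.00 to 0.25 in the others. Libraries with the same replicate number had correlations of deviations from their group means of -0.021 to 0.029. As the zinc mean includes zinc replicate 3, these values cannot settle whether the samples were paired, and the labels give only replicate numbers. A replicate block called 0 genes, with Kit at 0.87. Paired exact p were 0.75, 0.625 and 0.25 for the Wnt3, Dll4 and Egf shares, where 4 pairs cannot give a p below 0.125. Single libraries that lie apart widened some intervals, that of Dll4 being -0.29 to 2.16 with all libraries and -0.67 to 0.69 without zinc replicate 3.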
